A study of Mus musculus with 6 samples.

Results

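The 10 KDM genes described here encode enzymes that remove methyl groups from lysines of histones and need oxygen to do so. They were taken by symbol from a list of 10 mouse genes, Kdm1a, Kdm2a, Kdm2b, Kdm3a, Kdm3b, Kdm4a, Kdm4b, Kdm4c, Kdm5b and Kdm6b, and all 10 were found among the 56691 gene identifiers of the deposited table. All 10 also passed the filter on low counts, as did 16414 genes in all. RNA was sequenced in 6 mouse libraries in 2 groups of 3. The CTM group held circulating tumour micro-emboli, which are tumour cells that travel in blood as small clumps. They were taken with a capture device, the Cluster-chip, from mice with breast cancer and lung metastasis. The 4T1 group held the cultured mouse mammary carcinoma line 4T1, grown in DMEM with fetal bovine serum under standard conditions, with a low adherence culture named in the titles. Both groups were processed with an ultra low input RNA kit. For the mice, no source used here gives strain, age, allele or treatment. Whether libraries of 1 group stem from different mice or cultures is also not stated, so p-values measure library-to-library spread that may be purely technical. Host, culture, circulation and capture all differed between the groups and cannot be told apart.

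Most KDM proteins carry a JmjC domain, which uses iron, molecular oxygen and 2-oxoglutarate to oxidise the methyl group and releases succinate. KDM1A (LSD1) instead uses the cofactor FAD and passes electrons to oxygen. Different subfamilies act on different lysines of histone H3. In human and mouse cells kept at low oxygen, KDM3A and KDM4B are well known direct targets of the transcription factor HIF-1, and several relatives are also induced, while low oxygen at the same time deprives the enzymes of a substrate. RNA levels say nothing of enzyme activity or of histone marks, which were not measured.

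Library totals of the deposited counts, treated as estimated counts, ran from 69178212 to 71595766 in CTM and from 69640898 to 70703739 in 4T1. Levels are given as CPM, each library's counts divided by its scaled total, on which a gene can be compared between libraries, and log2 fold changes are CTM over 4T1. Libraries 2 and 3 of each group were close to each other. Replicate 1 stood apart from them in both groups, further in 4T1 than in CTM. The labelled tumour cell type was checked with 6 epithelial genes, led by the keratins Krt8 and Krt18. Their summed level was 1663 to 1773 CPM in CTM and 1855 to 2210 CPM in 4T1, although the epithelial marker Epcam was at 0.352 to 0.669 CPM in CTM and at 0.429 to 0.498 CPM in 4T1. Summed markers of leukocytes were at 14.8 to 24.5 CPM in CTM and 9.31 to 53.2 CPM in 4T1 (9 genes, with Ly6g at 0 throughout), and those of platelets at 8.13 to 11.5 CPM in CTM and 3.39 to 5.35 CPM in 4T1 (7 genes, with Gp6 at 0 throughout). Summed endothelial markers were at 2.17 to 3.74 CPM in CTM and 6.02 to 6.61 CPM in 4T1 (5 genes, with Emcn at 0 throughout). Hepatocyte transcripts were present in every library, with the sum of 5 genes at 187 to 494 CPM in CTM and 544 to 582 CPM in 4T1. By the test described below, the epithelial genes were uneven. Cdh1 (E-cadherin) was 3.99-fold, Krt7 3.17-fold and Krt8 1.36-fold lower in CTM (edgeR adjusted p = 0.0317, 0.00106 and 0.00548). The size of the Cdh1 difference depends on 4T1 replicate 1. Its levels were 14.8, 13.1 and 15.2 CPM in CTM, against 113, 27.8 and 31.0 CPM in 4T1. Krt19 was 2.86-fold higher (edgeR adjusted p = 0.00906), and Krt18 and Epcam did not pass. Of the other markers, 2 of 4 tested platelet genes were higher in CTM, 1 of 2 tested endothelial genes was lower, and no leukocyte or hepatocyte gene passed. The part of these other transcripts in the results below was not tested. In bulk RNA, fewer cells of a type and less RNA per cell cannot be told apart.

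Promoter sequences from RefSeq (build GRCm38.p6) were available for 6 of the members, as 12 windows of 250 bases ending just before an annotated start. Of these windows, 5 are shown, from 3 genes that were higher in CTM, 1 that was lower and 1 that did not pass the test. For Kdm3a, Kdm4c and Kdm2b, which have several annotated starts, a window was chosen that holds one of the sequence cores marked, so the windows shown are not a sample of all 12. Capitals mark the core letters to which HIF binds, ACGTG or GCGTG, on either strand, so that CACGT and CACGC are marked as well. CACGTG holds the ACGTG core on both strands.
Kdm3a, chr6:71632918-71633167, minus strand: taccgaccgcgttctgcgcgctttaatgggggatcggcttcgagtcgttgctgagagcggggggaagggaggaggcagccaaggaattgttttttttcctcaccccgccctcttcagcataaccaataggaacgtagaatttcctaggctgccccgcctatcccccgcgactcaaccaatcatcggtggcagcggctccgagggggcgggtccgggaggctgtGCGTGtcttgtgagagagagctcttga
Kdm4c, chr4:74251629-74251878, plus strand: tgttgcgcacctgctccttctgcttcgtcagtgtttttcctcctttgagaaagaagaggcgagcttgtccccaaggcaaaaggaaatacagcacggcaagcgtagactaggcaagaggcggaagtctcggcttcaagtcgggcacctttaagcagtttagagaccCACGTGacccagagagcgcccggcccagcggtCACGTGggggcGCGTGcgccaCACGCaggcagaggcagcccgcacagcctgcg
Kdm5b, chr1:134559928-134560177, plus strand: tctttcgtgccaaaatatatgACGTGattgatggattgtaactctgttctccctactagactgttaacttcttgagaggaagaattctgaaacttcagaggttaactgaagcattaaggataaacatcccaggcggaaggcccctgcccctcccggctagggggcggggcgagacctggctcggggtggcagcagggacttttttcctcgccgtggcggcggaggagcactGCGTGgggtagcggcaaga
Kdm2b, chr5:122989100-122989349, minus strand: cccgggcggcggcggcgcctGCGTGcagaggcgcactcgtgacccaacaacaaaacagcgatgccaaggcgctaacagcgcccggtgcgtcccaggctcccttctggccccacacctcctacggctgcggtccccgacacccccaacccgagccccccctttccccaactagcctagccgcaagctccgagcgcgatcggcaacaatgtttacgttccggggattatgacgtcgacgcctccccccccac
Kdm4a, chr4:118180044-118180293, minus strand: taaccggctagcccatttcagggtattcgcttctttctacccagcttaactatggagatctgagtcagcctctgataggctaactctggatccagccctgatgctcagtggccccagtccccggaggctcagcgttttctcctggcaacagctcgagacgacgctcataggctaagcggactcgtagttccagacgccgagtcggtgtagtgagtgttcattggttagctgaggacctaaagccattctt

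Counted back from the start, 1 of the 3 Kdm3a windows, the one shown, held the GCGTG core once, at position -27, and the other 2 held neither core. Of the 2 Kdm4c windows, 1 held no core. The one shown held CACGTG in 2 places, giving ACGTG cores at -85, -84, -53 and -52, and further GCGTG cores at -42 and -32. Unlike for the other windows shown, an exact search for bases just after this start found no match in GENCODE M21 transcripts of the gene. Kdm5b had ACGTG at -229 and GCGTG at -19, and Kdm2b, which was lower in CTM, had GCGTG at -230 in the window shown. Neither core was in the window of Kdm4a. Over all starts, 7 of the 12 windows of members held at least 1 of the cores. Of these 7, 4 were all the windows of Kdm2b, among them 2 that cover nearly the same bases, shifted by 17. Of the 6 windows of Kdm3a, Kdm4c and Kdm5b, 3 held a core. The same holds for 38.6% of all 32851 promoter windows of this length and for 63.8% of the 9178 windows with at least 60% G and C. A match is a description of letters in a short window and shows no binding.

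Most of these genes were higher in the captured clusters. Of the 10 members, 7 were higher in CTM, 1 was lower and 2 did not pass the test (edgeR quasi-likelihood test, Benjamini-Hochberg adjusted p below 0.05 over all 16414 genes). Over all genes tested, 14.2% were called higher and 13.7% lower. All members are well expressed, and among the 7038 genes with a mean of at least 25 CPM these shares were 22.3% and 20.2%. The median log2 fold change was 0.67 over the 10 members and -0.02 over all genes tested. For 7 members the lowest CTM library exceeded the highest 4T1 library, a pattern seen in 24.8% of all genes. For 1 member the order was the reverse, as for 23.5% of all genes. Among the 7038 genes with a mean of at least 25 CPM, 2354 showed the first order and 2026 the reverse. Changes were spread over the subfamilies, from 3.41-fold higher for Kdm3a to 1.59-fold lower for Kdm2b.

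**Figure D1:**
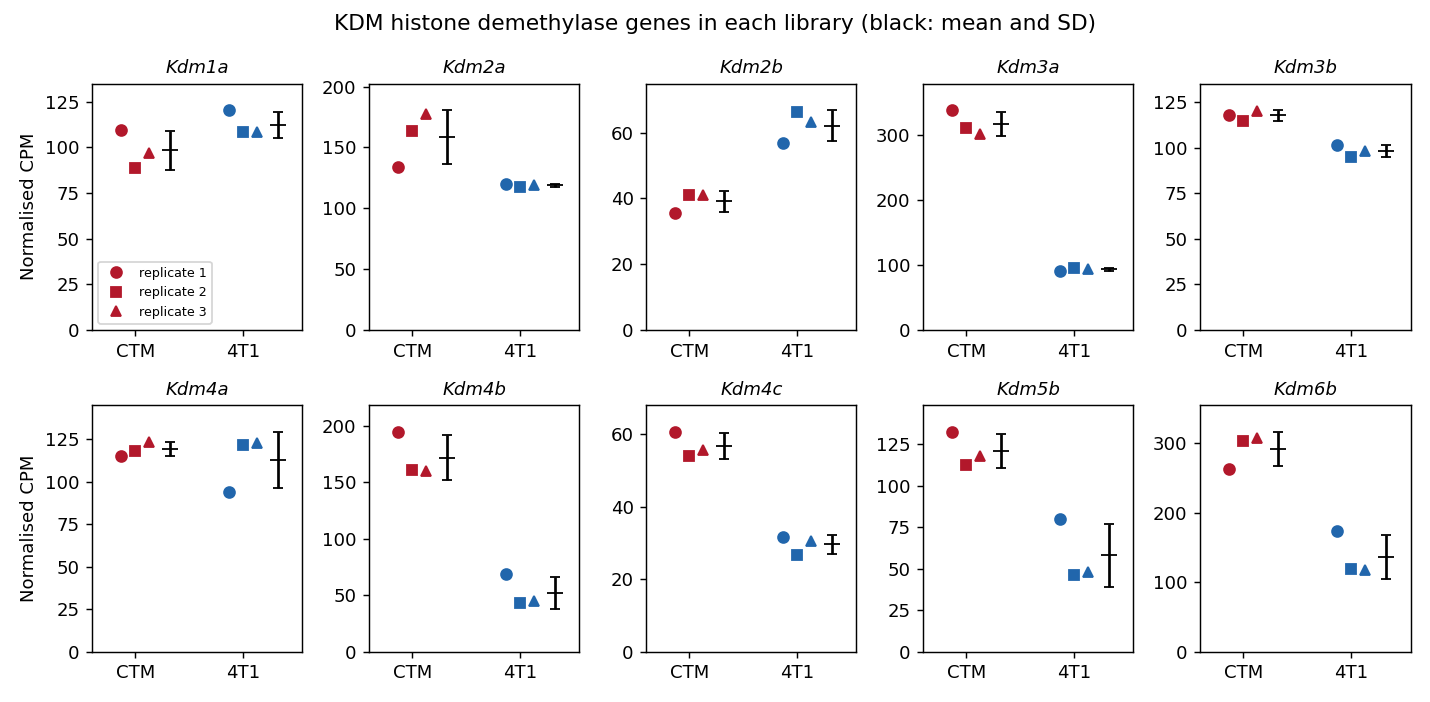
Normalised CPM (vertical axes, from 0) of the 10 KDM genes in each library, CTM in red on the left and 4T1 in blue on the right. Marker shapes give the replicate number, and black bars give the mean and SD of 3 libraries. In Kdm3a the CTM libraries sit between 302 and 338 CPM and the 4T1 libraries between 90.7 and 94.7 CPM, while in Kdm4a and Kdm1a the groups overlap.

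The KDM3 subfamily removes methyl groups from lysine 9 of histone H3 in its mono- and dimethylated forms. Kdm3a, also known as Jmjd1a and a textbook hypoxia target, was at 338, 311 and 302 CPM in CTM replicates 1 to 3, against 90.7, 94.7 and 93.5 CPM in 4T1 replicates 1 to 3. The groups were far apart and each was tight. The log2 fold change was 1.77 ± 0.08 (SE), a 3.41-fold difference with an edgeR adjusted p of 0.000134. By p-value Kdm3a ranked 15 among the 16414 genes, and 4.48% of genes had a larger absolute log2 fold change. Its paralogue Kdm3b was at 118, 115 and 120.5 CPM in CTM, against 101.8, 95.2 and 98.1 CPM in 4T1. These groups did not overlap either, but the difference was 1.20-fold (log2 0.26 ± 0.08, SE), with an edgeR adjusted p of 0.0466. An annotated gene on the opposite strand, Gm26538, shares 3468 exonic bases with Kdm3b, and strand-aware counting is not stated, so the Kdm3b level is uncertain. The third KDM3 gene, Jmjd1c, lies outside the 10 members and was 1.69-fold higher, at 157 ± 5.95 CPM in CTM and 93.3 ± 2.51 CPM in 4T1 (SD of 3 libraries each; edgeR adjusted p = 0.00126). The 95% intervals of the log2 fold changes were 1.57 to 1.97 for Kdm3a, 0.07 to 0.45 for Kdm3b and 0.57 to 0.94 for Jmjd1c.

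The KDM4 enzymes act on trimethylated lysine 9 and lysine 36 of H3. Kdm4b was at 195, 161 and 160.0 CPM in CTM, against 68.6, 42.8 and 45.1 CPM in 4T1. Replicate 1 was the highest library of both groups and the groups did not overlap. The difference was 3.30-fold (log2 1.72 ± 0.20, SE; edgeR adjusted p = 0.00163). Kdm4c, amplified in some human breast carcinomas, was at 60.6, 54.0 and 55.5 CPM in CTM, against 31.6, 26.7 and 30.6 CPM in 4T1. It was thus 1.91-fold higher (log2 0.94 ± 0.11, SE; edgeR adjusted p = 0.00162), with no overlap. Kdm4a, the founding member of the subfamily, was at 115, 118 and 124 CPM in CTM, against 94.1, 122 and 123 CPM in 4T1. The groups overlapped, with only 4T1 replicate 1 below the rest. Its log2 fold change was 0.08 ± 0.12 (SE), with a 95% interval of -0.21 to 0.36 and an edgeR adjusted p of 0.68, so that a difference of the size seen for Kdm4b or Kdm4c lay outside the interval. The sign for Kdm4a turned when 4T1 replicate 1 was left out (-0.04), with library totals alone (-0.01) and with limma voom (-0.02). The germ-line relative Kdm4d was at no more than 0.57 CPM in any library.

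Kdm5b removes methyl groups from di- and trimethylated lysine 4 of H3, a mark of active promoters, and is linked to luminal breast cancer. It was at 132, 113 and 118 CPM in CTM, against 80.0, 45.9 and 48.0 CPM in 4T1. All CTM values were above all 4T1 values, and 4T1 replicate 1 was far above the other 4T1 libraries. The difference was 2.09-fold (log2 1.06 ± 0.22, SE; edgeR adjusted p = 0.0121), and without 4T1 replicate 1 the log2 fold change was 1.36. Of its paralogues, Kdm5a was 1.41-fold higher, at 129 ± 1.87 CPM in CTM and 91.2 ± 7.26 CPM in 4T1 (SD of 3 libraries each; edgeR adjusted p = 0.00758). The X-linked Kdm5c was at 154 ± 9.60 CPM in CTM and 129 ± 10.1 CPM in 4T1 (SD of 3 libraries each) and did not pass (edgeR adjusted p = 0.088). The Y-linked Kdm5d and Uty were at 0 to 0.189 CPM in every library.

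Kdm6b, known as Jmjd3, removes methyl groups from lysine 27 of H3, the mark set by Polycomb repressive complex PRC2, and is inducible by inflammatory signals. Its level was 263, 304 and 308 CPM in CTM, against 173, 118 and 118 CPM in 4T1. The nearest values of the groups came from the libraries numbered 1, and the groups did not overlap. Kdm6b was 2.14-fold higher in CTM (SE 0.17 on the log2 scale; edgeR adjusted p = 0.00437). Between the libraries numbered 1 the log2 difference was 0.60, and between the means of the libraries numbered 2 and 3 it was 1.37. Its X-linked relative Kdm6a, an enzyme described in mammalian cells as sensitive to oxygen, was 1.32-fold higher, at 45.2 ± 3.19 CPM in CTM and 34.3 ± 1.59 CPM in 4T1 (SD of 3 libraries each; edgeR adjusted p = 0.0246). That call was lost without CTM replicate 2 or 3 and without 4T1 replicate 2 or 3 (0.059 to 0.0848).

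KDM2 proteins bind unmethylated CpG through a CXXC zinc finger and act on lysine 36 of H3, and KDM2B brings a Polycomb complex, PRC1.1, to CpG islands. The 2 members moved in opposite directions. Kdm2b was at 35.4, 40.9 and 41.0 CPM in CTM, against 56.9, 66.1 and 63.3 CPM in 4T1. No values overlapped, and Kdm2b was 1.59-fold lower (log2 -0.67 ± 0.11, SE; edgeR adjusted p = 0.00514). Exons of Kdm2b share 627 bases with the opposite-strand gene Rnf34, which was at 29.0 to 34.9 CPM in CTM and 23.3 to 26.3 CPM in 4T1. Kdm2a was at 134, 164 and 178 CPM in CTM, against 120.2, 118 and 119 CPM in 4T1. CTM replicate 1 lay closest to the 4T1 libraries. Kdm2a was 1.33-fold higher (log2 0.41 ± 0.12, SE; edgeR adjusted p = 0.0373).

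Kdm1a removes methyl groups from mono- and dimethylated lysine 4 within the CoREST repressor complex. It was at 109.6, 88.6 and 96.7 CPM in CTM, against 120.4, 108.1 and 108.3 CPM in 4T1. CTM replicate 1 fell within the 4T1 range, so the groups overlapped. The log2 fold change was -0.19 ± 0.11 (SE), with a 95% interval of -0.44 to 0.06 and an edgeR adjusted p of 0.225. Kdm1b, the other FAD-dependent demethylase, was 1.53-fold lower, at 19.6 ± 1.11 CPM in CTM and 29.9 ± 7.11 CPM in 4T1 (SD of 3 libraries each; edgeR adjusted p = 0.041). The 4T1 values of Kdm1b were uneven, at 38.1 CPM for replicate 1 and 25.9 and 25.6 CPM for the others. Its call was lost without any 1 of the CTM replicates and without 4T1 replicate 2 or 3 (edgeR adjusted p of 0.0516 to 0.153).

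**Figure D2:**
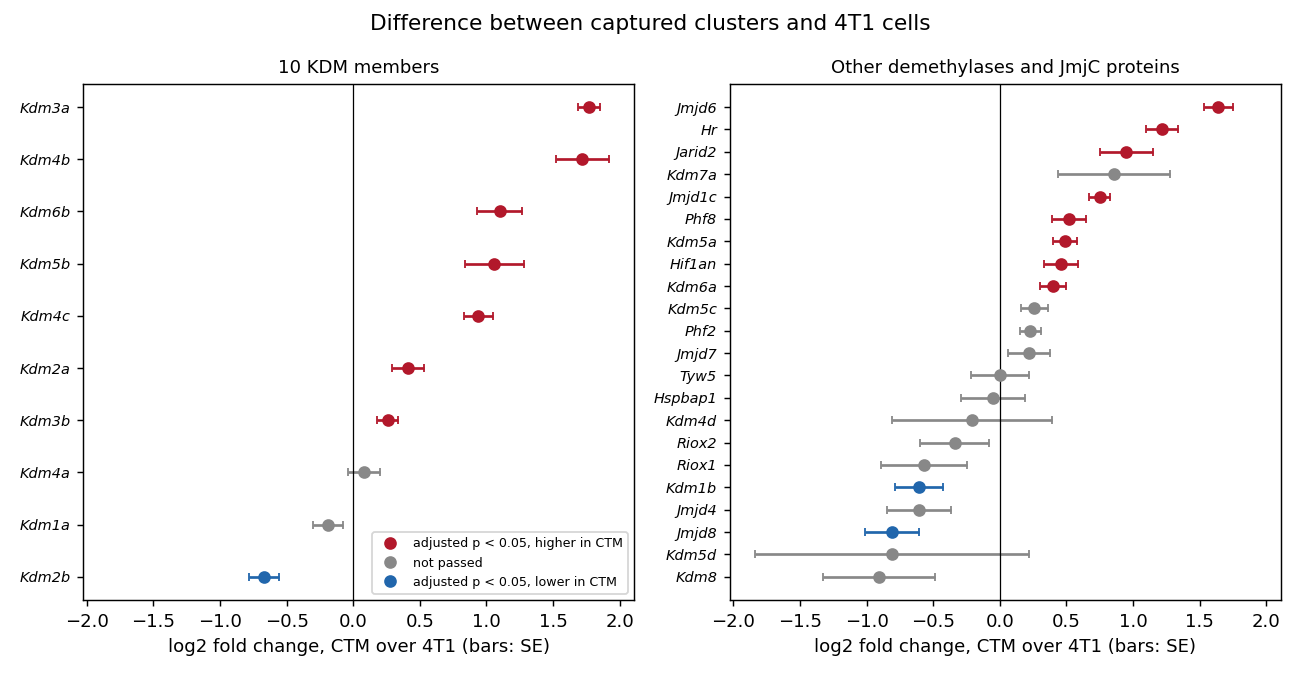
The log2 fold change of CTM over 4T1 (horizontal axis, points) with its SE (bars) for the 10 KDM members on the left and 22 other demethylases and JmjC proteins on the right. Red and blue mark genes that passed the test, higher and lower in CTM. Kdm3a at 1.77 and Kdm4b at 1.72 lie at the top, and Kdm2b at -0.67 is the single member called lower.

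Calls for the 5 members with the larger rises, Kdm3a, Kdm4b, Kdm4c, Kdm5b and Kdm6b, held with each library left out in turn. For Kdm5b they held narrowly, at an edgeR adjusted p of 0.0412 to 0.0497, except without 4T1 replicate 1 (0.000175). The call of Kdm2a was lost without CTM replicate 2 or 3 and without 4T1 replicate 2 or 3 (edgeR adjusted p of 0.108 to 0.134), and that of Kdm3b without any 1 of the CTM replicates and without 4T1 replicate 2 or 3 (0.0704 to 0.178). With the close libraries 2 and 3 of each group averaged and counted as 1 sample, 2 members were called higher by edgeR, Kdm3a and Kdm4b, and Kdm2b did not pass (adjusted p = 0.0906).

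To compare genes with one another, CPM was divided by the length in kilobases of each gene's merged exons in the GENCODE M21 annotation, a length that includes exons of every annotated transcript and so may understate genes with long alternative exons. In CTM, Kdm6b had 42.0 ± 3.59, Kdm3a 38.6 ± 2.30 and Kdm4b 35.1 ± 4.07 CPM per kb (SD, n = 3). Neighbours among these 3 overlapped between libraries, and all 3 lay above every other member. Kdm4a and Kdm1a came next, at 20.6 ± 0.721 and 19.0 ± 2.04 CPM per kb in CTM (SD, n = 3), and overlapped each other. Kdm2a, Kdm4c, Kdm3b, Kdm5b and Kdm2b followed at means of 10.97, 9.74, 8.36, 7.31 and 3.60 CPM per kb, and of these neighbours Kdm2a and Kdm4c overlapped. In 4T1 the order began instead with Kdm1a at 21.7 ± 1.35, Kdm4a at 19.6 ± 2.85 and Kdm6b at 19.6 ± 4.59 CPM per kb (SD, n = 3), whose ranges overlapped. Kdm3a and Kdm4b were next at means of 11.3 and 10.7 CPM per kb in 4T1 and overlapped each other. Kdm2a, Kdm3b, Kdm2b, Kdm4c and Kdm5b then had means of 8.24, 6.98, 5.71, 5.09 and 3.50 CPM per kb in 4T1, where Kdm4c overlapped both Kdm2b and Kdm5b.

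The make-up of the family is given as a description. The summed level of the 10 members was 199, 191 and 195 CPM per kb in CTM, against 120.5, 108 and 109 CPM per kb in 4T1. Kdm3a made up 19.7% ± 0.912 of that sum in CTM and 10.1% ± 0.829 in 4T1 (SD of 3 libraries each), and Kdm4b 18.0% ± 1.76 in CTM and 9.40% ± 1.94 in 4T1. Kdm1a made up 9.71% ± 0.846 in CTM and 19.3% ± 0.102 in 4T1 (SD of 3 libraries each). Between paralogues, the ratio of Kdm3a to Kdm3b per length was 4.90, 4.65 and 4.30 in CTM, against 1.53, 1.70 and 1.63 in 4T1. The ratio of Kdm4b to Kdm4a was 1.99, 1.61 and 1.53 in CTM, against 0.861, 0.414 and 0.432 in 4T1, so that Kdm4b exceeded Kdm4a in every CTM library and in no 4T1 library. Ratios of Kdm2a to Kdm2b were 2.84, 3.02 and 3.26 in CTM, against 1.59, 1.34 and 1.42 in 4T1. Ratios of Kdm4c to Kdm4a were 0.521, 0.453 and 0.446 in CTM, against 0.333, 0.217 and 0.247 in 4T1. Each of these 4 ratios separated the groups completely, with a two-sided exact permutation p of 0.1, the smallest that 3 against 3 libraries allow, and the same value after Benjamini-Hochberg adjustment over the 4.

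**Figure D3:**
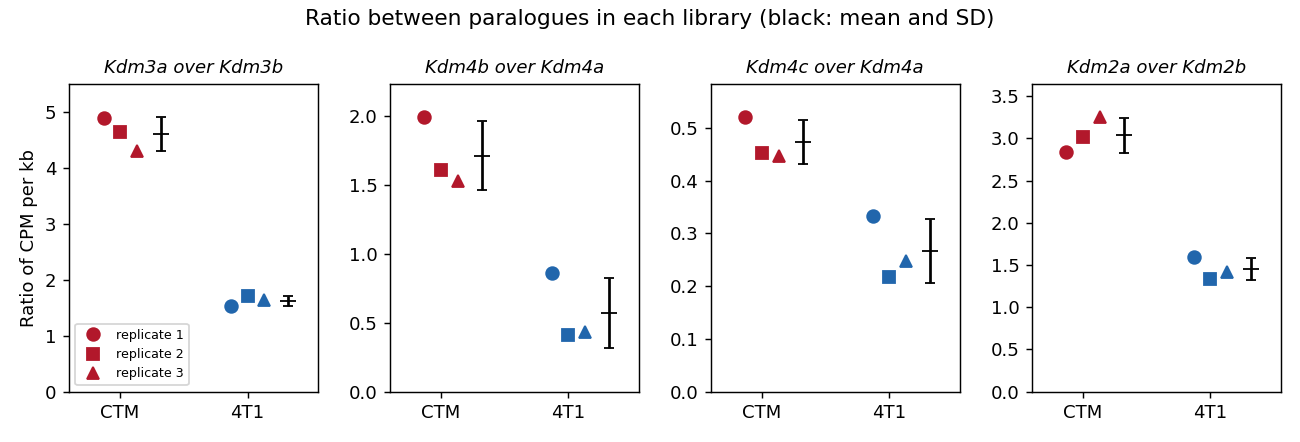
Ratio of CPM per kb between pairs of KDM paralogues (vertical axes, from 0) in each library, CTM in red on the left and 4T1 in blue on the right, with the mean and SD of 3 libraries in black. The Kdm3a to Kdm3b ratio lies between 4.30 and 4.90 in CTM and between 1.53 and 1.70 in 4T1, and no pair overlaps between groups.

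The remaining histone demethylases and JmjC proteins were listed for comparison, beside 14.2% called higher and 13.7% lower over all genes tested. Of 23 such genes, 22 were tested, of which 8 were higher, 2 lower and 12 did not pass, with a median log2 fold change of 0.23. The higher count was 5 without CTM replicate 2 or 3, 4 without 4T1 replicate 2 or 3 and 10 without 4T1 replicate 1. The lower count was 0 without any 1 of the CTM replicates or 4T1 replicate 2, 1 without 4T1 replicate 3 and 5 without 4T1 replicate 1. Limma voom called 11 higher and 6 lower. Uty was below the filter. Jmjd6, a lysyl hydroxylase of splicing factors, was 3.11-fold higher, at 193 ± 8.30 CPM in CTM and 62.0 ± 7.91 CPM in 4T1 (SD of 3 libraries each; edgeR adjusted p = 0.00045). Hr, which encodes the JmjC protein hairless, was 2.34-fold higher, at 200.3 ± 8.62 CPM in CTM and 85.7 ± 12.4 CPM in 4T1 (SD of 3 libraries each; edgeR adjusted p = 0.00117). Jarid2, a PRC2 partner whose JmjC domain has no catalytic activity, was 1.94-fold higher, Phf8 1.44-fold higher and Hif1an, the asparagine hydroxylase that restrains HIF, 1.38-fold higher. Besides Kdm1b, Jmjd8 was lower, by 1.75-fold. The calls of Phf8 and Hif1an were lost without any 1 of the CTM replicates and without 4T1 replicate 2 or 3 (edgeR adjusted p of 0.063 to 0.101), that of Jmjd8 without any 1 of the CTM replicates or 4T1 replicate 2 (0.0539 to 0.0688), and that of Jarid2 without 4T1 replicate 2 or 3 (0.0504 and 0.0513). The genes that did not pass were Kdm4d, Kdm5c, Kdm5d, Kdm7a, Phf2, Kdm8, Riox1, Riox2, Jmjd4, Jmjd7, Hspbap1 and Tyw5, with log2 fold changes from -0.91 to 0.86. Without 4T1 replicate 1, Kdm5c and Kdm7a passed as higher, and Kdm8, Riox1 and Riox2 as lower (edgeR adjusted p of 0.000517 to 0.0279). Calls of at least 2-fold higher were made for 4 of the 10 members, namely Kdm3a, Kdm4b, Kdm5b and Kdm6b, and for 4.5% of all genes.

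Genes of other dioxygenases and of the oxygen-sensing system were also described. Their counts stand beside 14.2% higher and 13.7% lower among all genes tested. Among genes with a mean of at least 25 CPM the shares were 22.3% and 20.2%. Of 12 TET and AlkB enzymes, which act on methylated DNA and RNA bases with the same cofactors, 5 were higher and none lower, with 7 short of the threshold and a median log2 fold change of 0.56. None was lower either at an unadjusted edgeR p below 0.05, by DESeq2 or by limma voom. The higher count was 3 without CTM replicate 2 or 4T1 replicate 3, and 8 with limma voom. The m6A demethylase gene Alkbh5 was 2.68-fold higher, at 478 ± 59.97 CPM in CTM and 178 ± 19.3 CPM in 4T1, and the DNA demethylation gene Tet2 was 3.16-fold higher, at 54.8 ± 11.6 CPM in CTM and 17.3 ± 1.65 CPM in 4T1 (SD of 3 libraries each; edgeR adjusted p = 0.000824 and 0.00121). Of 7 oxygen-sensing genes, 4 were higher and none lower by edgeR or DESeq2 with all libraries. However, 1, Egln2, was lower at an unadjusted edgeR p of 0.0385. Limma voom called 1 lower, as did edgeR without both libraries numbered 1. Egln1, the main HIF prolyl hydroxylase gene, was 3.08-fold, Vhl 2.91-fold, Egln3 1.83-fold and Arnt 1.65-fold higher. Hif1a did not pass (log2 fold change -0.89 ± 0.46, SE), and Egln2 and Epas1 did not either, with Epas1 at no more than 1.51 CPM in any library.

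Enzymes that set the marks removed by the KDM proteins were called in both directions. Of 6 methyltransferases for lysine 9, 3 were lower (median log2 fold change -0.31). None was higher by edgeR, also at an unadjusted p below 0.05, by DESeq2 or by limma voom. Suv39h1, which trimethylates lysine 9 in heterochromatin, was 2.11-fold lower, at 24.8 ± 1.93 CPM in CTM and 52.3 ± 10.1 CPM in 4T1, and Suv39h2 was 2.17-fold lower, at 10.3 ± 0.529 CPM in CTM and 22.4 ± 5.21 CPM in 4T1 (SD of 3 libraries each; edgeR adjusted p = 0.00394 and 0.00636). Setdb2 was 1.46-fold lower, a call lost without CTM replicate 2 or 3 and without 4T1 replicate 2 or 3 (edgeR adjusted p of 0.0689 to 0.132), and Setdb1, Ehmt1 and Ehmt2 did not pass, with log2 fold changes of -0.03, -0.07 and -0.02. In the PRC2 list 2 of 10 were higher and 3 lower (median -0.19), beside 22.3% higher and 20.2% lower among all well expressed genes. The lower count was 1 without CTM replicate 2 or 3 or 4T1 replicate 2. Ezh1, the lysine 27 methyltransferase typical of resting cells, was 2.87-fold higher, at 136 ± 23.7 CPM in CTM and 47.2 ± 2.59 CPM in 4T1 (SD of 3 libraries each; edgeR adjusted p = 0.000851). Ezh2, its counterpart in dividing cells, had a log2 fold change of -0.33 ± 0.22 (SE) and did not pass, and the PRC2 accessory gene Phf19 was 2.46-fold lower. Among 16 tested partners of LSD1, 6 were higher and 2 lower (median 0.17). The lower count was 1 without any 1 of the CTM replicates or 4T1 replicate 2, and 4 without 4T1 replicate 1. The complex genes Gse1 and Rcor2 were 2.28-fold and 1.89-fold higher, and the deacetylase gene Hdac1 was 1.95-fold lower, at 63.1 ± 4.87 CPM in CTM and 123 ± 17.1 CPM in 4T1 (SD of 3 libraries each; edgeR adjusted p = 0.00254).

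Genes that make or use 2-oxoglutarate, succinate and fumarate, the cofactor and inhibitors of JmjC enzymes, included 6 of 16 that were lower. Idh3b was higher (1.26-fold), and 9 were short of the threshold, for a median log2 fold change of -0.37. Over all genes tested, 13.7% were lower and 14.2% higher, and 20.2% and 22.3% among those with a mean of at least 25 CPM. The lower count was 4 without CTM replicate 2 or 3 and 5 without 4T1 replicate 2 or 3. It was 11 without 4T1 replicate 1 and 12 with limma voom. The call of Idh3b was lost without any 1 of the CTM replicates and without 4T1 replicate 2 or 3. Idh3a, a subunit of the NAD-dependent isocitrate dehydrogenase that forms 2-oxoglutarate, was 1.90-fold lower, Glud1 1.62-fold, Sdhb of succinate dehydrogenase 1.59-fold and Ogdh of the 2-oxoglutarate dehydrogenase complex 1.97-fold lower. Metabolite levels were not measured.

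**Figure D4:**
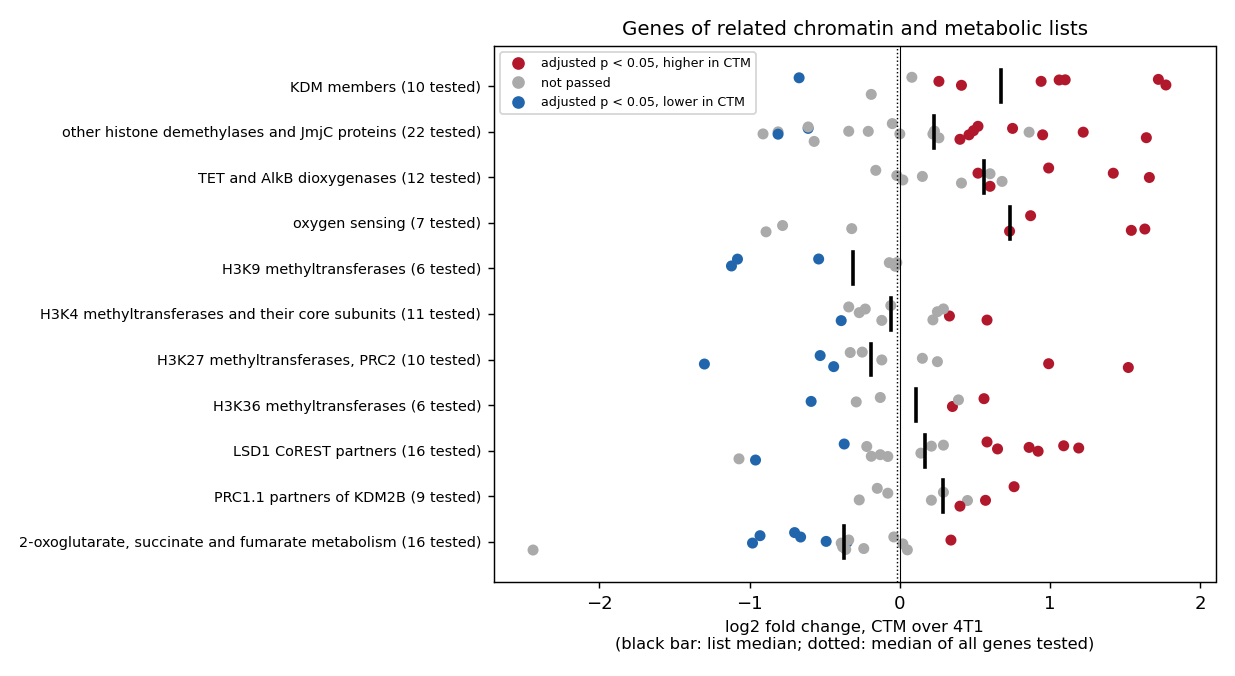
The log2 fold change of CTM over 4T1 (horizontal axis) of each tested gene in the KDM set and 10 related lists, 1 row per list, with list medians as black bars and the median of all genes tested, -0.02, as a dotted line. Red and blue points passed the test. The KDM members have a median of 0.67 and the lysine 9 methyltransferases of -0.31, with no lysine 9 methyltransferase called higher.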

How the data were processed

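RNA of 3 CTM and 3 4T1 libraries was sequenced after ultra low input amplification, per the labels' protocols. Per the submitters' processing notes, HISAT2 2.0.4, Bowtie 0.12.2, edgeR and build mm8 were used, with no role or order given. No source used here gives the counting program or its annotation. The deposited values are estimated counts per Ensembl gene, whole numbers with no scaling to a fixed total, so no rounding was needed. Low counts piled up at multiples of 4 (956 genes with a count of 4 in 4T1 replicate 1, against 391 with 3 and 320 with 5), so counting error may be larger than the totals imply.

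Symbols were found for 52073 of 56691 identifiers. Coordinates belong to the RefSeq promoters (GRCm38.p6) and not to the deposited file. All libraries entered edgeR 4.0.16 in R 4.3.3, with filterByExpr (16414 genes kept), TMM factors of 0.952 to 1.04 and the quasi-likelihood F test, two-sided, without a block. The SE of a log2 fold change is its size divided by the square root of F. DESeq2 1.42.0 and limma 3.58.1 served as alternatives, and the test was checked on simulated data. Of 50 genes changed at each size, it called 4 at 1.5-fold, 16 at 2-fold, 35 at 4-fold and 48 at 8-fold. Among 15829 unchanged genes it made 1 false call. In the data far more genes were called, 2323 higher and 2252 lower, and Kdm3b passed at 1.20-fold. The simulated rates of detection and of false calls therefore cannot be carried over to the members. Genes that did not pass may still differ. The plan assumed either plain or estimated counts.

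The members, lists and alternatives were chosen with earlier results of these data known. Named genes were all members, all other demethylases and JmjC proteins, all oxygen-sensing genes, and up to 4 called genes with the smallest p of each other list. Setdb1, Ehmt1, Ehmt2, Ezh2, Idh3b, Idh1 and the epithelial markers were named after their values were seen. A chi-square per gene on counts divided by 4 was 3.16 between 4T1 replicates 2 and 3, 4.26 between CTM replicates 2 and 3, and 24.3 to 69.2 for other pairs. All were kept as separate samples. The result of 1 marker list is not reported here.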

Additional observations from a re-analysis of the deposited data

How the results depend on the processing

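All 17 alternatives were run. The log2 fold changes of Kdm3a ranged from 1.69 to 1.83 and of Kdm4b from 1.60 to 1.97, and both passed in all 17. Kdm2b, Kdm4c, Kdm5b and Kdm6b passed in 16, each except with libraries 2 and 3 averaged (edgeR adjusted p of 0.0906, 0.0505, 0.101 and 0.0719). Kdm2a passed in 9, Kdm3b in 8, Kdm1a in 2 and Kdm4a in 0. Members called higher numbered 5 to 7 with a library left out and 2 with libraries 2 and 3 averaged. Members called lower numbered 1 with a library left out, 2 with limma voom and without both libraries numbered 1, where Kdm1a also passed, and 0 in the averaged fit. Over all genes, leaving out a library gave 1334 to 3323 higher and 1208 to 3326 lower. The lower count moved by over 1.5 times without CTM replicate 2 or 3 and without 4T1 replicate 2 or 3 (1208, 1292, 1415 and 1437), and the higher count without CTM replicate 2 and without 4T1 replicate 2 (1334 and 1496). Over all genes, limma voom gave 4514 higher and 4628 lower, leaving out both libraries numbered 1 gave 4239 and 4340, and averaging 326 and 246. Fits that leave out or average libraries hold fewer samples. Without 4T1 replicate 1 the counts were 3323 higher and 3326 lower, against 2323 and 2252 with all libraries. The cause of these shifts was not tested. Library totals alone moved the median of all genes from -0.02 to -0.11.

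The groups share replicate numbers, but same-numbered libraries did not deviate together (r of 0.0635, 0.0161 and 0.0121), and the numbers are not taken as pairs. With the replicate block, 5 members were higher and 1 lower, and 2232 genes were higher and 2065 lower in all, while Kdm2a and Kdm3b had an edgeR adjusted p of 0.055 and 0.0637. Not every library correlated best with its own number.

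Signs turned in genes near 0 that never passed. These were Kdm4a (-0.02 with limma voom, -0.01 with library totals, -0.04 without 4T1 replicate 1, -0.02 without both libraries numbered 1) and Kdm4d (0.14 without CTM replicate 2, 0.05 without 4T1 replicate 3, with -0.52 the lowest, without CTM replicate 1). Hspbap1 turned to 0.22 with limma voom, 0.10 without CTM replicate 1, 0.15 without 4T1 replicate 1 (lowest with a library left out: -0.15) and 0.28 without both libraries numbered 1. Tyw5 turned to 0.02 with no filter, 0.03 with the replicate block, 0.07 without CTM replicate 1, 0.01 without 4T1 replicate 2, 0.19 without 4T1 replicate 3 (lowest with a library left out: -0.19) and 0.07 with averaging. Across 67 named genes, 952 values kept direction and call, 139 lost and 25 gained the call, and 16 turned. Of the counts of calls in related lists, 248 stayed within 1.5 times and 92 did not. With libraries 2 and 3 averaged, no related list had a lower call by edgeR and none had more than 2 higher.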

Other observations

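Of 9 tested partners of KDM2B in PRC1.1, 3 were higher (median log2 fold change 0.29), while Kdm2b itself was lower. None was lower by edgeR with TMM factors and all libraries, or by DESeq2. The lower count was 1 at an unadjusted edgeR p below 0.05, by limma voom and with library totals alone. It was 2 without both libraries numbered 1. The higher count was 1 without CTM replicate 2 or 3, without 4T1 replicate 2 or 3 and with library totals alone. The 3 were Rybp, 1.69-fold higher at 54.9 ± 0.618 CPM in CTM and 32.5 ± 1.58 CPM in 4T1 (edgeR adjusted p = 0.00176; SD over 3 libraries each), Ring1 and Rnf2. Of 11 lysine 4 methyltransferases and core subunits, 2 were higher, Kmt2a by 1.26-fold and Kmt2c by 1.49-fold, and Men1 was 1.31-fold lower (median -0.06), beside 22.3% higher and 20.2% lower among all genes with a mean of at least 25 CPM. The higher count was 0 without CTM replicate 2 or 3, without 4T1 replicate 2 or 3 and with library totals alone. The lower count was 0 without any 1 of the CTM replicates or 4T1 replicate 2 or 3, and 3 without 4T1 replicate 1. Of 6 lysine 36 methyltransferases, Nsd3 and Setd2 were 1.47-fold and 1.28-fold higher and Nsd2 was lower, at 149.6 ± 4.07 CPM in CTM and 225 ± 39.8 CPM in 4T1 (median 0.11). The Nsd2 call was lost without any 1 of the CTM replicates and without 4T1 replicate 2 or 3, and the higher count was 1 without CTM replicate 2 or 3 and without 4T1 replicate 2 or 3.

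Some genes of 4T1 replicate 1 stood far from the other 4T1 libraries. Idh1, which makes 2-oxoglutarate in the cytosol, was at 144, 156 and 163 CPM in CTM, against 1964, 280.0 and 271 CPM in 4T1, and did not pass (edgeR adjusted p = 0.0551). It was named after its values were seen. Hif1a was at 296, 235 and 239 CPM in CTM, against 884, 273 and 267 CPM in 4T1. Kdm7a was at 83.1, 66.6 and 60.6 CPM in CTM, against 68.5, 23.6 and 23.8 CPM in 4T1, and did not pass (edgeR adjusted p = 0.171). Without 4T1 replicate 1 the log2 fold change of Kdm7a was 1.56, and it passed (edgeR adjusted p = 0.000517).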
